A study of Mus musculus with 4 samples.

Results

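The mesothelium, the cell sheet that covers the surface of visceral fat, was followed here through 10 of its marker genes, Msln, Upk3b, Upk1b, Lrrn4, Wt1, Krt19, Krt8, Krt18, Gpm6a and Bnc1. They were looked up by symbol among the 24421 genes of RNA-seq matrices of mouse epididymal adipose tissue, and all 10 were found. Expression had been measured in poly(A) RNA from wild-type male C57BL/6J mice made obese with high-fat diet (HFD). In the weight-cycling group, WC1, 2 periods of HFD lasting 8 and 6 weeks were separated by 2 weeks on standard diet (SD), and the first began at 8 weeks of age. In the high-fat control group, Ctrl, HFD began at 10 weeks of age and was not interrupted. The time on HFD thus came to 14 weeks in either group, and all mice were studied at 24 weeks of age. Each group had 2 libraries, with between 61465029 and 90965297 reads, and the labels do not say whether a library came from a single mouse. The p values below therefore measure the spread between these libraries only.

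Mesothelial cells line the peritoneal cavity and wrap the organs and fat depots within it, the epididymal depot among them, whereas subcutaneous fat has no such cover. They are of mesodermal origin but form an epithelium, with keratin filaments and a polarized surface that secretes lubricating fluid. In a piece of adipose tissue they sit only at the outer surface, so they contribute little RNA compared to adipocytes and macrophages. In bulk tissue, fewer mesothelial cells and less mesothelial RNA per cell cannot be told apart.

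The genes lie on 8 chromosomes of the mm10 (GRCm38) assembly, with positions from GENCODE M21. Msln is at chr17:25748613-25754378, Upk3b at chr5:136038496-136046487, Upk1b at chr16:38773184-38800328, Lrrn4 at chr2:132868305-132880891 and Wt1 at chr2:105126529-105173616. Gpm6a is at chr8:54954843-55060871, Bnc1 at chr7:81966672-81992292 and Krt19 at chr11:100140810-100148665. Krt8, at chr15:101996698-102004482, and Krt18, at chr15:102028180-102032027, are neighbours that point away from each other across 23698 bases. Krt8, Bnc1 and Gpm6a overlap non-coding genes or pseudogenes, and Krt8 also has a processed pseudogene elsewhere. The sources used here do not say how shared reads were counted.

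Promoter sequences were at hand from RefSeq (GRCm38.p6) for 6 of the 10 genes, in 7 entries. They are shown because most of these genes moved together between libraries, as described further on. The bases upstream of the annotated start are printed for Upk3b and Lrrn4, which encode surface proteins, for Bnc1, which encodes a transcription factor, and for Krt18, which encodes a keratin. Capitals mark matches on either strand to the GC box GGGCGG, the TATA box TATAAA, the TEAD motif CATTCC, the WT1 motif GCGTGGG or the CCAAT box. The stretches of Lrrn4 and Krt18 are shorter, 221 and 214 bases, because they end where the GENCODE gene begins, whereas motifs were counted over 250 bases in every entry.
Upk3b, chr5:136038246-136038495, plus strand: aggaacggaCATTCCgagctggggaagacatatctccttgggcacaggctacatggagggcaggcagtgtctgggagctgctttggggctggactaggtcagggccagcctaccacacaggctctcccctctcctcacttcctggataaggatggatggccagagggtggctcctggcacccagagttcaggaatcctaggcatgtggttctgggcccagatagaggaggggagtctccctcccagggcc
Lrrn4, chr2:132880892-132881112, minus strand: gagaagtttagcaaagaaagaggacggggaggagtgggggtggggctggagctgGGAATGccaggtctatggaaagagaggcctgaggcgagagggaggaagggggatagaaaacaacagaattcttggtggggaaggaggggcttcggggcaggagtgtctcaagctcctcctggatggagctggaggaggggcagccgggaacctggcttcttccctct
Bnc1, chr7:81992300-81992549, minus strand: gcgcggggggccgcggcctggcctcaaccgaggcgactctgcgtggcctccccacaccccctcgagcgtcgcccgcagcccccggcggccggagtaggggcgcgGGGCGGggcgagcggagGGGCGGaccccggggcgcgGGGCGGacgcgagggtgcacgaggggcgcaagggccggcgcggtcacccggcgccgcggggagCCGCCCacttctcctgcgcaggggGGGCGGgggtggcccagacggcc
Krt18, chr15:102027966-102028179, plus strand: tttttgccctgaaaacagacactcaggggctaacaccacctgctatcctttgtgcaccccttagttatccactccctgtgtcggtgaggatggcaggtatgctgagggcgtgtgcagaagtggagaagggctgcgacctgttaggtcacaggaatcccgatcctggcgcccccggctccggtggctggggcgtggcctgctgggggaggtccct

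Among the 7 entries, the GC box was found in 1, that of Bnc1, where the printed stretch holds 5 copies and 83.6% G and C. The median over 32851 promoters was 52.4% G and C, and 32.7% of them held the GC box. The TEAD motif was found in 3 entries, those of Upk3b, Lrrn4 and an upstream start of Gpm6a, compared to 12.6% of all promoters. The WT1 motif was found in 0 of the 7 entries and in 4.3% of all promoters. The TATA box was found in the other entry of Gpm6a and in 12.4% of all promoters. The CCAAT box was found in 0 of the 7 entries and in 33.8% of all promoters. These letters do not form a set that the 7 windows share.

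Levels of the genes were first compared with each other on TPM, the abundance of transcripts corrected for their length and scaled to a common total. Upk3b, a uroplakin found on mesothelium as well as in the urinary tract, was the most abundant, with a mean of 41.8 TPM over the 4 libraries. Msln, which encodes mesothelin, a glycoprotein anchored at the cell surface, followed with 19.9 TPM. Krt19, a keratin of simple epithelia, had 14.3 TPM. Upk1b, a tetraspanin of the uroplakin group, had 11.2 TPM. Upk3b, the highest of the 10, ranked 3803 among all 24421 genes by mean TPM, and Bnc1, the lowest, ranked 12452.

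Mean TPM was 8.98 for Gpm6a, a membrane glycoprotein also abundant in neurons. It was 8.53 for Wt1, the transcription factor of the Wilms tumour locus, which is also active in progenitor cells of visceral fat. Lrrn4, a leucine-rich repeat membrane protein, had 8.02 TPM. These 3 means were close, and their order changed between libraries. Krt8 and Krt18, a keratin pair that forms filaments together, had 5.26 and 3.47 TPM, and Bnc1, which encodes the zinc finger protein basonuclin-1, had 1.79 TPM. Of the 9 pairs of neighbours in this order, 6 kept it in all 4 libraries, and the exceptions were Krt19 and Upk1b, Gpm6a and Wt1, and Wt1 and Lrrn4.

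Next, each gene was examined in each library, on CPM as deposited, that is reads scaled by library size and not corrected for length. Upk3b was at 47.8 and 34.9 CPM in Ctrl 1 and Ctrl 2 and at 21.1 and 64.3 CPM in WC1 1 and WC1 2. Msln measured 23.1 and 13.8 CPM in Ctrl against 12.1 and 33.7 CPM in WC1. Upk1b measured 11.6 and 9.75 CPM in Ctrl against 4.23 and 13.8 CPM in WC1. For these surface genes WC1 1 was the lowest library and WC1 2 the highest, with both Ctrl libraries between them. Lrrn4 showed the same order, with 16.4 and 10.8 CPM in Ctrl against 8.18 and 19.7 CPM in WC1. Gpm6a did so too, with 17.7 and 11.7 CPM in Ctrl against 7.44 and 22.4 CPM in WC1.

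Of the transcription factor genes, Bnc1 measured 5.09 and 3.47 CPM in Ctrl against 1.82 and 6.12 CPM in WC1. Wt1 measured 15.0 and 15.0 CPM in Ctrl against 8.28 and 14.3 CPM in WC1. Bnc1 followed the order of the surface genes, whereas Wt1 was nearly equal in Ctrl 1, Ctrl 2 and WC1 2 and low in WC1 1 alone. Wt1 was the member whose groups did not overlap on CPM, with both WC1 libraries below both Ctrl libraries. On TPM its groups overlapped, at 9.25 and 9.33 TPM in Ctrl against 5.57 and 9.96 TPM in WC1.

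The keratin genes stood out by their level in WC1 2. Krt19 measured 7.97 and 6.38 CPM in Ctrl against 6.92 and 17.0 CPM in WC1. Krt8 measured 3.99 and 3.48 CPM in Ctrl against 3.43 and 7.70 CPM in WC1. Krt18 measured 2.11 and 1.74 CPM in Ctrl against 1.47 and 4.18 CPM in WC1. WC1 2 was the highest library for all 3, while WC1 1 was the lowest for Krt8 and Krt18 and lay between the Ctrl libraries for Krt19. The lowest read number behind any of these values was 90, for Krt18 in WC1 1, where the 95% Poisson interval ran from 1.19 to 1.81 CPM. Such intervals cover counting error only.

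**Figure D1:**
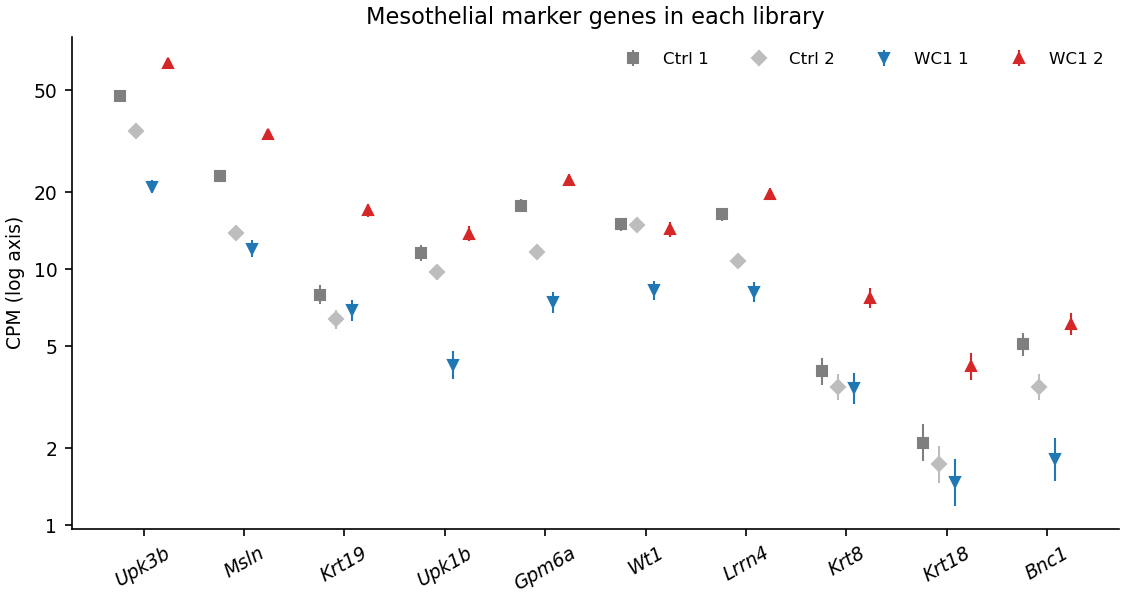
CPM on a log axis for each of the 10 mesothelial genes, ordered by mean TPM, in the 4 libraries (points), with exact 95% Poisson intervals for counting error (bars). WC1 2 is the highest library for 9 genes and WC1 1 the lowest for 9, the exceptions being Wt1 and Krt19.

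The order WC1 1, Ctrl 2, Ctrl 1, WC1 2 from low to high was found in 8 of the 10 genes on CPM, all but Krt19 and Wt1. Over all 14106 genes tested, 1.52% had this order. On TPM it was found in 7 of the 10 genes and in 1.91% of all genes. Ctrl 1 was above Ctrl 2 in all 10 genes on CPM and in 9 on TPM, the exception being Wt1. Over all genes, 48.8% were higher in Ctrl 1 on CPM.

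The distance between the WC1 libraries was then measured. The CPM of WC1 2 was higher than that of WC1 1 by 3.36-fold for Bnc1 (95% counting interval 2.72 to 4.19), 3.25-fold for Upk1b (2.83 to 3.75) and 3.05-fold for Upk3b (2.87 to 3.25). It was higher by 3.004-fold for Gpm6a, 2.83-fold for Krt18, 2.79-fold for Msln, 2.46-fold for Krt19, 2.41-fold for Lrrn4 and 2.25-fold for Krt8. Wt1 had the smallest ratio, 1.73-fold (1.55 to 1.93). No interval reached 1, so counting error was smaller than the distance in each gene. At least 2-fold was reached by 9 of the 10 genes, all but Wt1, compared to 1.69% of all genes in that direction. In the opposite direction 0 of the 10 genes and 1.27% of all genes reached 2-fold. The median log2 ratio was 1.49 over the 10 genes and -0.025 over all genes. The middle 90% of all genes lay between -0.54 and 0.57, and all 10 mesothelial genes lay above it.

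The Ctrl libraries differed in the same genes, but less. The ratio of Ctrl 1 to Ctrl 2 was 1.67 for Msln (95% counting interval 1.55 to 1.80), 1.52 for both Gpm6a and Lrrn4, 1.47 for Bnc1 and 1.37 for Upk3b. It was 1.25 for Krt19, 1.21 for Krt18, 1.19 for Upk1b and 1.15 for Krt8, and for Krt8 and Krt18 the counting intervals reached below 1. Wt1 was equal, with a ratio of 1.001 (0.92 to 1.09). The median log2 ratio was 0.39 over the 10 genes and -0.0042 over all genes. At least 2-fold was reached by 0 of the 10 genes and by 0.737% of all genes.

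**Figure D2:**
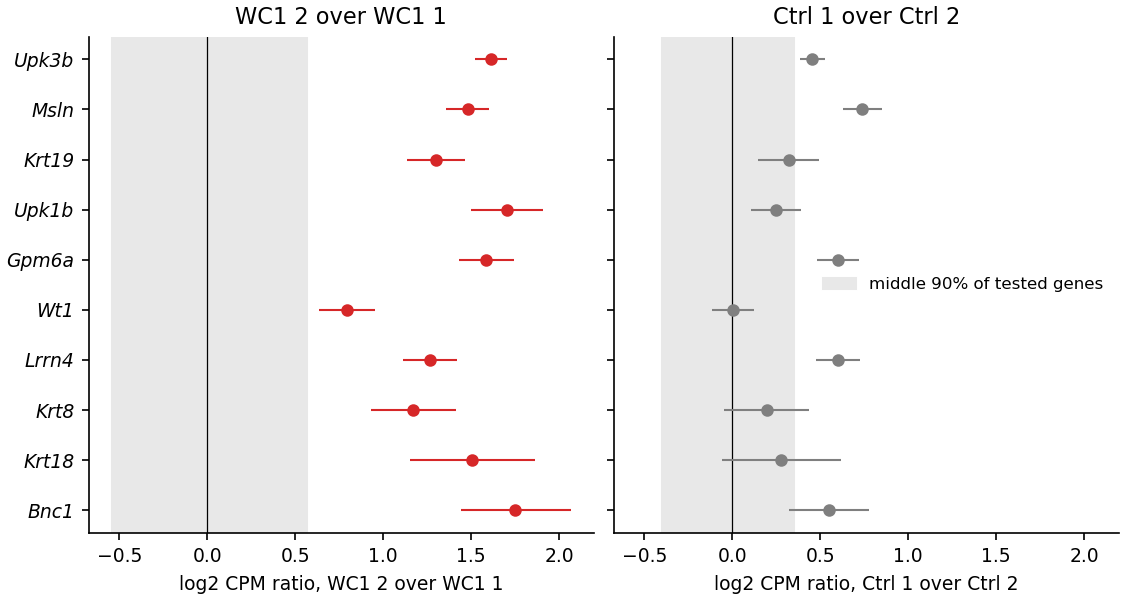
The log2 CPM ratio between the libraries of a group for each mesothelial gene (points, with exact 95% counting intervals as bars), for WC1 2 over WC1 1 (left) and Ctrl 1 over Ctrl 2 (right), with the middle 90% of 14106 genes shaded. All 10 genes lie to the right of the shaded range in WC1, and 5 do so in Ctrl.

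To ask whether weight cycling changed these genes, WC1 was compared with Ctrl in limma over the 14106 genes that reached 0.5 CPM in 2 or more libraries, on log2(CPM + 1). All 10 mesothelial genes were among the genes tested. Over all genes, 1443 were called higher and 1088 lower in WC1 (adjusted p below 0.05), that is 17.9% of genes tested, 10.2% higher and 7.71% lower. On TPM these numbers were 2054 and 583, with the all-gene median shifted up by 0.12 on the log2 scale. Without Ctrl 1, 2 genes were called higher and 4 lower, and without Ctrl 2, 6 higher and 6 lower. In these fits the spread came from the WC1 libraries alone, and all 2531 genes kept their direction. Of the 10 mesothelial genes 0 were called, and 0 had an unadjusted p under 0.05, where 37.8% of all genes did. In edgeR and in DESeq2 on the reads, 0 of the 10 were called as well, with 17.6% and 27.4% of all genes called.

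The difference was largest for Krt19, with a mean of 7.17 ± 1.12 CPM in Ctrl and 11.97 ± 7.15 CPM in WC1 (SD, n = 2 per group). Its log2 fold change was 0.55 ± 0.40 (SE), with a 95% interval from -0.47 to 1.58 (limma adjusted p = 0.36). Krt8 followed at 0.39 (interval -0.46 to 1.24), Krt18 at 0.30 (-0.63 to 1.22) and Msln at 0.17 (-1.12 to 1.47). The remaining genes had fold changes below 0. Wt1, with means of 15.0 ± 0.015 CPM (Ctrl) and 11.3 ± 4.28 CPM (WC1), had -0.42 ± 0.25 (-1.05 to 0.21, limma adjusted p = 0.27). Upk1b had -0.40 (-1.66 to 0.85), Bnc1 -0.22 (-1.40 to 0.96), Upk3b -0.14 (-1.47 to 1.20), Gpm6a -0.13 (-1.43 to 1.16) and Lrrn4 -0.057 (-1.14 to 1.02). Each interval included 0 together with changes of more than 2-fold in at least 1 direction, so an absence of change was not shown either. The median log2 fold change was -0.095 over the 10 genes and -0.019 over all genes.

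The groups did not overlap in 1 of the 10 genes, Wt1, which was lower in WC1, compared to 69.3% of all genes, 32.7% higher and 36.6% lower. The sum of the 10 genes was 127 and 94.8 TPM in Ctrl and 70.9 and 200.5 TPM in WC1. WC1 1 thus had the lowest sum and WC1 2 the highest. The mean was 111 ± 22.6 TPM in Ctrl and 136 ± 91.6 TPM in WC1 (SD, n = 2 per group), and the difference was smaller than the spread between the WC1 libraries.

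Which genes were called, and in which direction, depended on the WC1 library that was left out. Without WC1 1, 5 mesothelial genes were called higher in limma, namely Krt19 (log2 fold change 1.15), Krt8 (0.88), Msln (0.88), Krt18 (0.83) and Upk3b (0.64), and 0 were called lower, with limma adjusted p values between 0.0034 and 0.0499. In that fit 17.2% of all genes were called higher and 19.5% lower. Without WC1 2, 4 genes were called lower, namely Upk1b (-1.15), Upk3b (-0.92), Bnc1 (-0.89) and Wt1 (-0.78), and 0 were called higher, with limma adjusted p values between 0.0068 and 0.040. In that fit 10.1% of all genes were called higher and 8.73% lower. Upk3b was called in opposite directions in these fits. The remaining WC1 library was in each case taken to vary as the Ctrl libraries do.

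**Figure D3:**
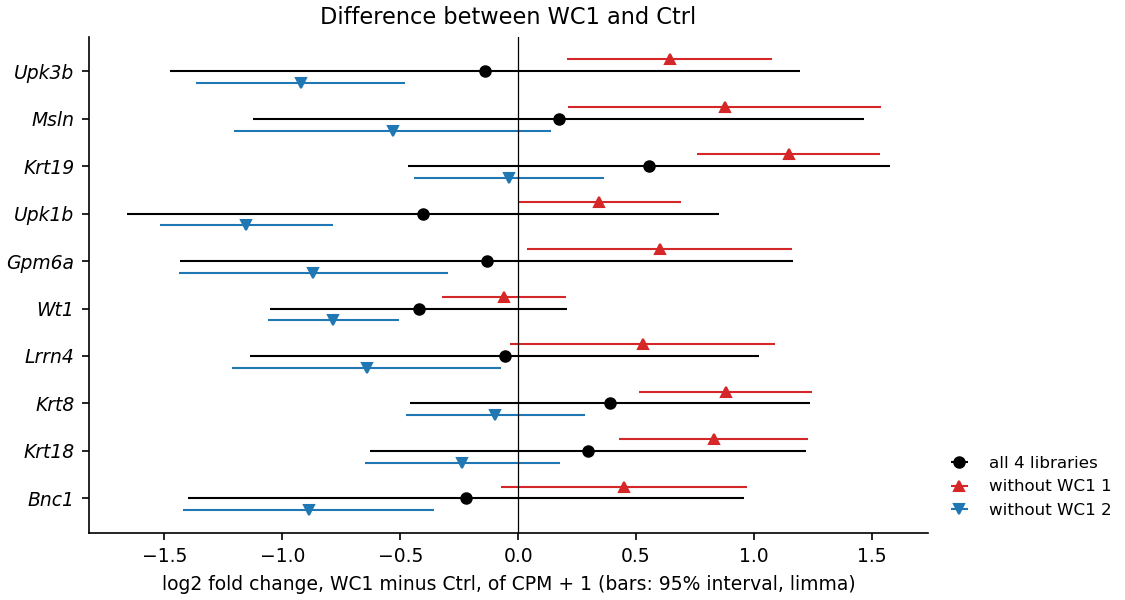
Log2 fold change of CPM + 1 between WC1 and Ctrl for each mesothelial gene in limma (points) with its 95% interval (bars), with all 4 libraries and without either WC1 library. With all libraries each interval crosses 0, and for Upk3b the interval lies above 0 without WC1 1 and below 0 without WC1 2.

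The makeup of the mesothelial signal was described next, as the share of each gene in the summed TPM of the 10 genes. The shares did not overlap between the groups for 7 of the 10 genes, 4 higher and 3 lower in WC1. Over all genes divided by the same sum, the groups did not overlap in 10.2%, 7.24% higher and 2.92% lower. Such a ratio carries the spread of the sum into genes that do not follow it, so this percentage is lower than the 69.3% of undivided CPM, and nothing is read from the count of 7.

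Krt19 made up 8.74% and 9.44% in Ctrl against 14.8% and 13.3% in WC1. Krt8 made up 3.33% and 3.92% in Ctrl against 5.57% and 4.57% in WC1, and Krt18 2.27% and 2.52% in Ctrl against 3.09% and 3.20% in WC1. Msln was also higher in both WC1 libraries, at 16.4% and 13.3% in Ctrl against 16.7% and 17.1% in WC1. The 3 genes with lower shares in both WC1 libraries were Upk3b, Upk1b and Bnc1. Upk3b made up 35.4% and 34.8% in Ctrl against 30.4% and 33.9% in WC1, and Upk1b 9.84% and 11.2% in Ctrl against 6.998% and 8.34% in WC1. Bnc1 made up 1.64% and 1.51% in Ctrl against 1.14% and 1.41% in WC1. The shares of Gpm6a, Wt1 and Lrrn4 overlapped between the groups.

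The size of these shifts was expressed as the mean log2 TPM of Krt19, Krt8 and Krt18 relative to that of Msln, Upk3b, Upk1b, Lrrn4, Gpm6a and Bnc1. This measure was chosen after the values had been seen, and was therefore not tested. Its reference includes the 3 genes whose shares were lower in WC1. It came to -1.16 and -0.89 in Ctrl against -0.25 and -0.49 in WC1, so WC1 was higher by 0.65 on the log2 scale, or 1.57-fold. The difference was 0.78 for Krt19 alone, 0.63 for Krt8 alone and 0.55 for Krt18 alone. Against this reference the groups did not overlap in 6 of the 10 genes, Msln, Krt19, Krt8 and Krt18 higher and Upk1b and Bnc1 lower, and in 9.99% of all genes, 8.03% higher and 1.96% lower. The reference is made of 6 of the 10 genes, so it carries their own spread. The count for the 10 genes and the share of all genes are therefore not alike, and nothing is read from them. Krt7, a further keratin of simple epithelia and no member of the 10, had a difference of 0.28 with overlapping groups. Wt1 relative to the same 6 genes came to -0.30 and 0.23 in Ctrl against 0.060 and -0.72 in WC1, again with overlap.

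**Figure D4:**
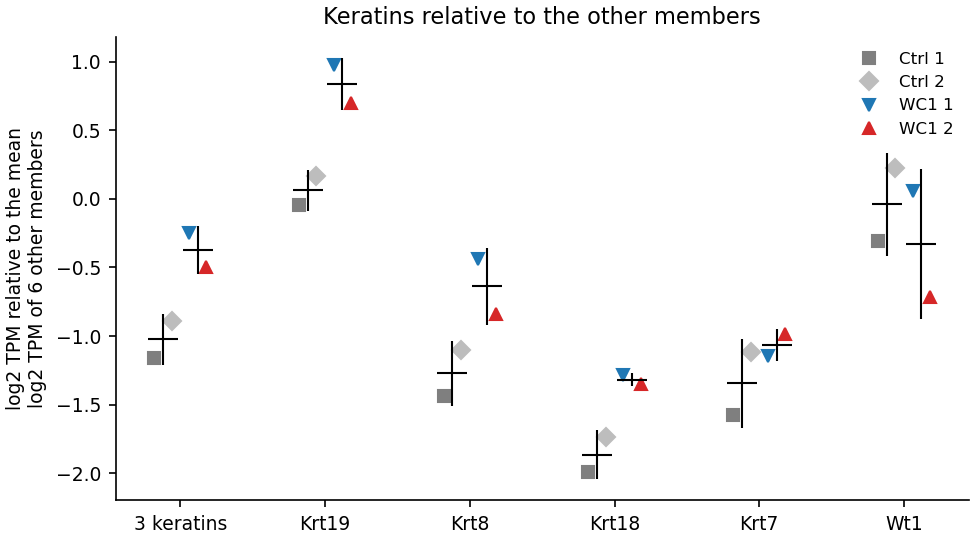
Log2 TPM of keratin genes and Wt1 relative to the mean log2 TPM of Msln, Upk3b, Upk1b, Lrrn4, Gpm6a and Bnc1, by library (points), with the mean and SD of each group (black, n = 2). Krt19, Krt8 and Krt18 and their mean are higher in both WC1 libraries than in both Ctrl libraries, whereas the groups overlap for Krt7 and Wt1.

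A wider list of 16 genes linked to mesothelium was examined in the same fit. Of these, 13 were tested, Calb2 and Dsp fell below the CPM minimum and Muc16 was not found by that symbol in the matrices. Calb2, which encodes calretinin, was listed at 0 in all 4 libraries, where 3 reads correspond to between 0.0345 and 0.0492 CPM, for counting error only. It is a commonly used marker of mesothelium, and its mRNA was thus not detected at this depth. Of the 13 genes, 0 were called higher and 1 was called lower, where 10.2% and 7.71% of all genes were, and the median log2 fold change was -0.15. On CPM the list summed to 372 and 325 in Ctrl against 263 and 312 in WC1, with both WC1 libraries below both Ctrl libraries. On TPM the groups overlapped, with sums of 349 and 299.9 TPM in Ctrl against 259 and 336 TPM in WC1. Ctrl 1 was thus the highest library, and WC1 2 exceeded WC1 1 by 1.30-fold, compared to 2.83-fold for the sum of the 10 genes. Pdpn, a large part of this sum, measured 112 and 107 TPM in Ctrl against 60.9 and 43.9 TPM in WC1. It was thus lower in WC1 2 than in WC1 1, unlike the sum.

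The called gene was Pdpn, which encodes podoplanin, a surface protein of mesothelium and also of lymphatic vessels and stromal cells. It fell from 108 and 102 CPM in Ctrl to 53.7 and 37.5 CPM in WC1. On the log2 scale the change was -1.20 ± 0.17 (SE), with a limma adjusted p = 0.021. Its log2 fold change was -1.17 without Ctrl 1 and -1.24 without Ctrl 2, with an SE of 0.24, and it was not called (limma adjusted p = 0.16 and 0.11). Of the 13 genes of the wider list, 2 were called higher and 1 lower without WC1 1, where 17.2% and 19.5% of all genes were. Without WC1 2, 0 were called higher and 4 lower, where 10.1% and 8.73% of all genes were. In DESeq2, 1 was called higher and 1 lower, and with the replicate number as a block 1 higher and 2 lower, with 27.4% and 23.2% of all genes called in these fits. Pdpn was lowest in WC1 2, where the 10 mesothelial genes were mostly highest. Ezr, which encodes the membrane linker ezrin, measured 76.96 and 83.5 CPM in Ctrl against 52.2 and 69.6 CPM in WC1, and was not called (limma adjusted p = 0.12). The order WC1 1, Ctrl 2, Ctrl 1, WC1 2 was found on CPM in 4 of the 13 genes and in 1.52% of all genes. These 4 are named here for that order, after the values had been seen. They were Krt7, Nkain4, Slpi, which encodes a secreted protease inhibitor, and Rspo1, which encodes a secreted enhancer of WNT signalling. Rspo1 measured 14.2 and 10.7 CPM in Ctrl against 7.87 and 16.5 CPM in WC1. Nkain4 measured 8.07 and 4.999 CPM in Ctrl against 3.90 and 9.21 CPM in WC1. Like Upk3b and Msln, both were lowest in WC1 1 and highest in WC1 2. The rest of the 13 genes did not have this order on CPM. Aldh1a2 was highest in WC1 1, at 32.4 and 18.3 CPM in Ctrl against 47.2 and 36.9 CPM in WC1. It was called higher in DESeq2 and with the replicate block, but not without the block (limma adjusted p = 0.12).

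Relatives of the 10 genes were next considered. Of 4 further uroplakin genes, Upk2, Upk3a and Upk3bl were listed at 0 in each library, and Upk1a measured 0.57 and 0.41 CPM in Ctrl against 0.33 and 0.65 CPM in WC1, again lowest in WC1 1 and highest in WC1 2. Of 11 other keratin genes 5 were tested and 0 were called, with Krt20 and Krt79 nearest to the threshold (limma adjusted p = 0.056 and 0.060). In other settings up to 3 of these 5 were called, in both directions. On TPM Krt79 was called higher and Krt20 lower, where 14.6% and 4.13% of all genes were. In DESeq2 Krt79 and Krt80 were called higher and Krt20 lower, where 15.1% and 12.3% of all genes were. Krt7, among these 5, also belongs to the wider mesothelial list. Epithelial genes outside mesothelium were scarce. Of 10 genes of simple epithelia, such as Epcam and Cdh1, 1 passed the CPM minimum, Cldn3, and the list summed to between 0.64 and 2.41 TPM, highest in Ctrl 2. Of 10 genes of nerve and Schwann cells, where Gpm6a could also arise, 5 were tested and 0 were called. Ncam1 and S100b had the smallest p (limma adjusted p = 0.17 and 0.20). Most of the summed TPM of this list came from Mbp, which measured 36.5 and 33.8 TPM in Ctrl against 38.9 and 37.9 TPM in WC1. S100b measured 2.29 and 2.46 TPM in Ctrl against 2.02 and 1.99 TPM in WC1, and Sox10 at most 0.049 TPM. The part of nerve RNA in the level of Gpm6a was not tested.

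Epididymal genes were checked because the depot adjoins the epididymis, whose epithelium also makes keratins. Of 10 such genes, 7 were listed at 0 in every library and 0 passed the CPM minimum. Adam7 was at 3.02 CPM in WC1 1, with 184 reads, and at 0.032 CPM in WC1 2, with 2 reads, and was listed at 0 in both Ctrl libraries. Spag11b and Pate4 were seen in WC1 1 only, with 46 and 7 reads. The list summed to 4.31 TPM in WC1 1, 0.020 TPM in WC1 2 and 0 in Ctrl. WC1 1 was the library in which most mesothelial genes were lowest, and the part of epididymal RNA in that was not tested.

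Other cell types of adipose tissue were compared with the mesothelial genes by the summed TPM of marker lists of 10 genes each. Adipocyte genes summed to 24936 and 26614 TPM in Ctrl and to 43270 and 54471 TPM in WC1. Most of these sums came from Fabp4, which was not called. Fabp4 measured 16027 and 16745 TPM in Ctrl against 28163 and 35241 TPM in WC1. In this list 6 genes were called higher and 0 lower, namely Adipoq (log2 fold change 1.23), Plin1 (1.03), Lep (1.34), Slc2a4, Lipe and Pnpla2, where 10.2% of all genes were called higher and 7.71% lower. Endothelial genes summed to 348 and 399 TPM in Ctrl and to 800 and 1070 TPM in WC1, with 7 called higher and 0 lower, namely Cldn5 (1.76), Kdr (1.43), Tie1, Tek, Pecam1, Cdh5 and Egfl7, against the same 10.2% and 7.71% of all genes. In both lists the sums of the groups did not overlap, and WC1 2 was above WC1 1. Without Ctrl 1 or without Ctrl 2, 0 genes of either list were called, and Adipoq then had 1.07 and 1.39 and Cldn5 1.65 and 1.87 on the log2 scale. Without a filter on low values 0 adipocyte and 7 endothelial genes were called, and the share of all genes called was 7.28%, compared to 17.9% with the filter.

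Macrophage genes summed to 15931 and 14419 TPM in Ctrl and to 9437 and 6726 TPM in WC1, with 0 called higher and 4 lower, namely Mrc1 (-0.89), Mertk (-0.60), Lyz2 (-1.25) and Itgam (-0.96), where 10.2% of all genes were called higher and 7.71% lower. The other members with negative fold changes, Itgax, Trem2, Cd68, Adgre1 and Csf1r, were not called, and Cd163, which encodes a scavenger receptor, had 0.36 (limma adjusted p = 0.091). Cd163 measured 23.6 and 26.3 CPM in Ctrl against 29.5 and 35.4 CPM in WC1. The other 9 genes were lowest in WC1 2, where Cd163 was highest. Most of the summed TPM of this list came from Lyz2, at 11192 and 9774 TPM in Ctrl against 5668 and 4169 TPM in WC1.

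Adipose progenitor genes, a group in which Wt1 can also be active, summed to between 1238 and 1365 TPM, with 0 called higher and 4 lower, namely Anxa3 (-0.68), Ly6a (-0.69), Pdgfra (-0.59) and Fap (-0.51), against 10.2% and 7.71% of all genes. Of the other 6 genes, Cd55 (0.38), Col15a1 (0.28), Dpp4 (0.27) and Pdgfrb (0.048) had positive fold changes, and Pi16 (-0.42) and Cd34 (-0.059) negative ones. Within WC1 these genes did not share a direction, since Pi16 measured 107 CPM in WC1 1 and 69.96 CPM in WC1 2, and Dpp4 28.1 and 39.8 CPM. The part of progenitor RNA in the level of Wt1 was not tested.

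The number of calls in both lists varied with the libraries. Without Ctrl 1 or without Ctrl 2, 0 genes of either list were called, although Mrc1 then had -0.87 and -0.91 on the log2 scale. Without WC1 1, 1 macrophage gene was called higher, Cd163, and 9 lower, and 2 progenitor genes were called higher, Dpp4 and Col15a1, and 5 lower, where 17.2% of all genes were called higher and 19.5% lower. Without WC1 2, 0 macrophage genes were called higher and 7 lower, and 1 progenitor gene was called higher, Cd55, and 4 lower, where 10.1% of all genes were called higher and 8.73% lower. Without a filter on low values, 0 macrophage genes were called higher and 2 lower, with 4.35% and 2.93% of all genes. In DESeq2, Cd163 was called higher and 8 macrophage genes lower, with 15.1% and 12.3% of all genes. With the replicate number as a block, Cd163 was called higher and 7 macrophage genes lower, with 12.5% and 10.6% of all genes.

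The sum of lymphocyte genes was 21.1 and 13.5 TPM in Ctrl and 23.3 and 61.1 TPM in WC1, so it was highest in WC1 2 and higher in Ctrl 1 than in Ctrl 2. All 10 genes of this list passed the CPM minimum, and Cd79b, part of the B cell receptor, was called higher (log2 fold change 0.95, limma adjusted p = 0.049). This was 1 of 10 genes, near the 10.2% of all genes called higher. This call was lost with a pseudocount of 4, without a filter, with median-of-ratios scaling and without either Ctrl library, and a filter on a mean of at least 5 CPM leaves the gene out. Its log2 fold change was 1.03 without Ctrl 1 and 0.86 without Ctrl 2. Of the lymphocyte list, 5 genes were called without WC1 1, 2 without WC1 2 and 3 in DESeq2, where 36.7%, 18.8% and 27.4% of all genes were called. Its partner Cd79a had 1.66 (limma adjusted p = 0.11). When split after the values had been seen, the 4 B lymphocyte genes summed to 5.61 and 3.76 TPM in Ctrl and to 10.6 and 36.3 TPM in WC1. The 6 T cell genes summed to 15.5 and 9.74 TPM in Ctrl and to 12.7 and 24.8 TPM in WC1. The part of lymphocyte RNA in the spread of the mesothelial genes was not tested.

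**Figure D5:**
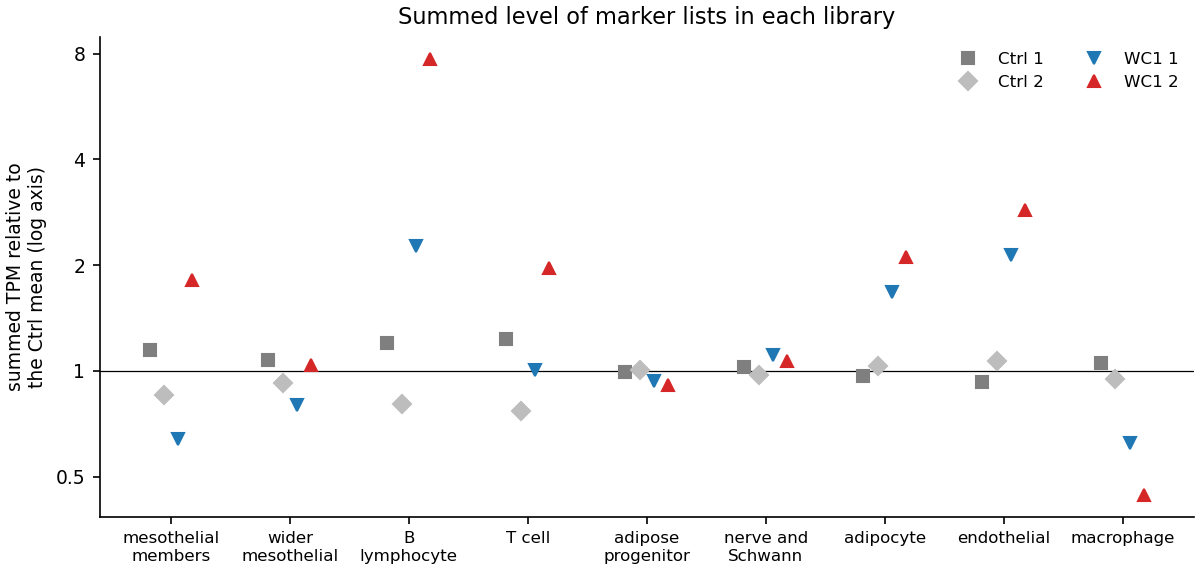
Summed TPM of marker lists in each library, divided by the mean of the Ctrl libraries (log axis). The mesothelial members are lowest in WC1 1 (70.9 TPM) and highest in WC1 2 (200.5 TPM), whereas adipocyte and endothelial lists are higher and the macrophage list lower in both WC1 libraries.

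Finally, the genes outside all lists with the most similar profile were sought, by the Euclidean distance of centred log2(CPM + 1) over 4 libraries from the mean profile of the 10 genes. Of 12565 candidates with a mean of at least 1 CPM, the nearest included Fmod (distance 0.25), Fmo2 (0.27), Cybrd1 (0.27) and Mpzl2 (0.28). The 10 genes themselves lay between 0.16 and 0.61 from their mean, and the median candidate lay at 0.98. Fmod, which encodes the matrix protein fibromodulin, measured 50.4 and 43.1 CPM in Ctrl against 30.2 and 59.98 CPM in WC1. Fmo2, a flavin-containing monooxygenase, measured 44.0 and 32.6 CPM in Ctrl against 30.1 and 57.4 CPM in WC1. Both were thus lowest in WC1 1 and highest in WC1 2. With 4 libraries many genes can share such an order, so these values are a description only.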

How the data were processed

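RNA had been purified with a column kit, and poly(A) RNA had been made into directional libraries. The submitters' processing notes name fastp, HISAT2, StringTie and mm10, without versions or roles, and the sources used here do not give the read counter or annotation. The authors deposited 2 gene-by-library matrices. In the first, named CPM, the reads of each gene were divided by a rescaled library size, so it was handled as a signal as the authors deposited it, in proportion to reads. Its columns sum to between 97.6% and 105% of the nominal total, and 100% of the values were whole reads to within 0.01 read. The recovered reads came to 71658062, 90965297, 61655738 and 61465029 in Ctrl 1, Ctrl 2, WC1 1 and WC1 2. In the second the authors deposited TPM. There were 0 unused sample columns.

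Groups and library numbers came from the sample titles. Genes that reached 0.5 CPM in 2 or more libraries were tested with limma 3.58.1 in R 4.3.3 on log2(CPM + 1), two-sided, with an abundance trend and Benjamini-Hochberg adjustment over all genes tested at 0.05. The reads were tested with edgeR 4.0.16 and DESeq2 1.42.0 as alternatives. The scripts were tested on simulated data. Ratios between 2 libraries have exact binomial intervals. Beside the 10 genes, the text names the called genes of each list, its 2 smallest p values and the 5 nearest genes (Rik, Gm and pseudogene symbols skipped), of which 1 is not reported here. The genes and lists were chosen with earlier results of these data known. Motifs were counted in RefSeq GRCm38.p6 sequences over the 250 bases upstream of each RefSeq start. Printed stretches end earlier where the GENCODE gene begins earlier.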

Additional observations from a re-analysis of the deposited data

How the results depend on the processing

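With all 4 libraries, 0 mesothelial genes were called under both pseudocounts, no filter, a mean of at least 5 CPM (which leaves out Krt8, Krt18 and Bnc1), TPM, median-of-ratios scaling, edgeR and DESeq2. The direction of Upk3b turned in edgeR (0.072 on the log2 scale) and DESeq2 (0.074), that of Lrrn4 in TPM (0.074), edgeR (0.059) and DESeq2 (0.060), and that of Gpm6a in TPM (0.0049), edgeR (0.045) and DESeq2 (0.047), all close to 0. The groups did not overlap in 0 mesothelial genes on TPM. Over all genes, 788 were called higher and 532 lower without a filter, where more genes were tested, 583 lower in TPM and 1736 lower in DESeq2. The cause was not tested.

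With a library left out, genes called higher ranged from 2 to 2424 and genes called lower from 4 to 2748 over all genes, with the lowest counts without Ctrl 1 or Ctrl 2. Mesothelial genes called higher ranged from 0 to 5 and called lower from 0 to 4. Log2 fold changes ranged from -0.53 to 0.88 (Msln), -0.92 to 0.64 (Upk3b), -1.15 to 0.34 (Upk1b), -0.64 to 0.53 (Lrrn4), -0.78 to -0.058 (Wt1), -0.039 to 1.15 (Krt19), -0.096 to 0.88 (Krt8), -0.24 to 0.83 (Krt18), -0.87 to 0.60 (Gpm6a) and -0.89 to 0.45 (Bnc1). Without Ctrl 1 or Ctrl 2 the spread came from WC1 alone, and the median SE over all genes was 0.16 in either fit, compared to 0.11 with all libraries. All 2531 genes called with all libraries kept their direction in each of these 4 fits.

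Libraries carry the numbers 1 and 2 in either group, and no label ties equal numbers to a shared litter or day. Across 14106 genes, the library 1 minus library 2 differences of the groups had r = 0.19, and a pairing cannot be judged from 2 pairs. When the replicate number entered as a block, 1769 genes were called higher and 1497 lower, and 0 mesothelial genes were called.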
